A study of Mus musculus with 4 samples.

Results

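The 10 genes described here encode ligands of the TNF superfamily: *Tnf*, *Lta*, *Ltb*, *Tnfsf8*, *Tnfsf10*, *Tnfsf11*, *Tnfsf13b*, *Tnfsf14*, *Cd40lg* and *Fasl*. They were taken as a list and matched by Ensembl gene ID among the 31950 genes that both gene expression libraries hold. Single-cell RNA-Seq had been made from small intestinal lamina propria cells of WT and A20ZF7 mice. A20ZF7 mice carry a knock-in mutation in the seventh zinc finger of A20, the motif through which this ubiquitin-editing protein binds linear (M1) ubiquitin chains. Each genotype is 1 library that pools 2 mice at 12 weeks of age, made with a 5′ kit from 60000 cells that had been enriched for T cells and innate lymphoid cells (ILCs) by negative selection. Since each genotype is a single library, genotypes were compared without a test, and a difference between libraries cannot be told apart from a difference between the 2 pools of mice. Each level is given in unique molecular identifiers (UMIs) per 1000000 UMIs of a population (CPM), and each 95% interval, shown in parentheses, covers counting error only.

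TNF superfamily ligands are mostly type II membrane proteins that act as trimers on receptors of the TNF receptor superfamily, either on a neighbouring cell or, after cleavage, as soluble cytokines. Most of these receptors recruit TRAF adaptors and activate NF-κB, while some hold a death domain and can trigger apoptosis. A20, encoded by *Tnfaip3*, restrains NF-κB signaling downstream of TNF and related receptors. In the gut, lymphotoxin and RANKL are known for the organisation of lymphoid tissue by ILCs, CD40L and CD30L for T cell costimulation, and BAFF for the survival of B cells and plasma cells.

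*Tnf*, *Lta* and *Ltb* lie beside each other on chromosome 17, where *Tnf* spans chr17:35199381-35202007 in mm10. A gap of 1157 bases parts it from *Lta*, and one of 3060 bases from *Ltb*. *Tnfsf14* is on the same chromosome, *Fasl* on chromosome 1, *Tnfsf10* on chromosome 3, *Tnfsf8* on chromosome 4, *Tnfsf13b* on chromosome 8, *Tnfsf11* on chromosome 14 and *Cd40lg* on chromosome X. RefSeq (GRCm38.p6) gave the 250 bases before the start of the gene for 9 of the 10 members, all but *Cd40lg*. They were searched on both strands for the NF-κB consensus, by its usual definition of 10 letters, and for the AP-1 motif TGANTCA, with overlapping matches counted. The NF-κB consensus was found in 1 member, *Ltb*, and in 3.90% of 32851 promoters of the same length. The AP-1 motif was found in 2 members, *Tnfsf14* and 1 of 2 starts of *Tnfsf13b*, and in 6.75% of all promoters. The upstream stretches of *Tnfsf8*, *Tnf* and *Ltb* follow, 5′ to 3′ on the strand of each gene, since the first had the highest and the second the lowest ratio among the members compared in T cells and the third held the match. Capitals mark the match to the NF-κB consensus, whose first base lies 87 bases before the RefSeq start of *Ltb*. The gene positions and gaps above are those of GENCODE, where some starts differ. There *Ltb* begins at 35194439 on the plus strand and *Tnfsf8* at 63861347 on the minus strand. The last part of these 2 stretches thus lies inside the GENCODE gene.
*Tnfsf8*, chr4:63861285-63861534, minus strand: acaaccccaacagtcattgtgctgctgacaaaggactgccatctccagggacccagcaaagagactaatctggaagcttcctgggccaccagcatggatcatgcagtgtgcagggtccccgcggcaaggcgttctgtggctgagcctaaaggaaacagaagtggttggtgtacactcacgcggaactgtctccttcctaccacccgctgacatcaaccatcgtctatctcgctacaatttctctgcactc
*Tnf*, chr17:35202008-35202257, minus strand: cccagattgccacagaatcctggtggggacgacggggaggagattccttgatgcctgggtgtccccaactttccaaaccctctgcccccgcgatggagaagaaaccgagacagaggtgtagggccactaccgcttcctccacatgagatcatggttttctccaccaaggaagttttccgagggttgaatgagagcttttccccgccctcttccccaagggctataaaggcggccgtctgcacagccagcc
*Ltb*, chr17:35194257-35194506, plus strand: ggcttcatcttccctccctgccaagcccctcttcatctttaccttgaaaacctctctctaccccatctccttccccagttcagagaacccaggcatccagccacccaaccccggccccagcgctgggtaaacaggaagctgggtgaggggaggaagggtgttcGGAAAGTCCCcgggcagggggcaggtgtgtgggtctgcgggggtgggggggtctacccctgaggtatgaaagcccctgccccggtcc

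After filtering, 20661 WT barcodes (median 938 UMIs) and 44821 A20ZF7 barcodes (median 830 UMIs) remained, and 1315 barcode sequences occurred in both. Barcodes were placed in classes by marker genes, and those with markers of 2 classes were left out, 1678 in WT and 4965 in A20ZF7. T cell barcodes numbered 5015 in WT and 20095 in A20ZF7, innate lymphoid barcodes 4032 and 4752, myeloid barcodes 239 and 765, and stromal barcodes 8728 and 12970. The T cell check list, *Cd5*, *Cd6*, *Cd28*, *Lat* and *Bcl11b*, was not used for the choice and summed to 1500 CPM in WT and 1460 CPM in A20ZF7 T cells, against 400 and 666 CPM in innate lymphoid barcodes. The innate lymphoid check list includes *Il22* and *Il23r*, which also served to seed subsets. It did not set the class apart, with 2980 and 5080 CPM there and 2000 and 3400 CPM in T cells. Only 12 WT and 11 A20ZF7 barcodes were taken by the B cell genes *Cd79a* and *Cd79b*. Of 5 check genes of B cells, 2 were detected there in WT and 0 in A20ZF7. *Igha* was at 193000 and 165000 CPM, so the B cell label goes against the data there. In these barcodes no member had more than 2 UMIs, where 3 UMIs correspond to 99.6 CPM in WT and 183 CPM in A20ZF7.

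RNA free in the suspension reached every class. Barcodes with fewer than 100 UMIs, which should be mostly empty, held all 10 ligands. *Igha*, a plasma cell gene, measured 7760 CPM in such WT barcodes against 7190 CPM in such A20ZF7 barcodes. In T cells it was at 1040 CPM in WT and 2500 CPM in A20ZF7, which is 13.4% and 34.7% of its level in barcodes with fewer than 100 UMIs. In stromal barcodes these shares were 34.4% and 59.8%. *Cd3e* in stromal barcodes measured 37.3 CPM in WT against 124 CPM in A20ZF7. The level of each member in barcodes with fewer than 100 UMIs is therefore given beside its level in cells, and ratios were also computed with free RNA, scaled by *Igha*, taken off. That level, called the free RNA level below, is of barcodes that should hold mostly free RNA. By *Igha*, T cell and stromal barcodes held a share of it, so it is not the amount of free RNA in a cell barcode.

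**Figure D1:**
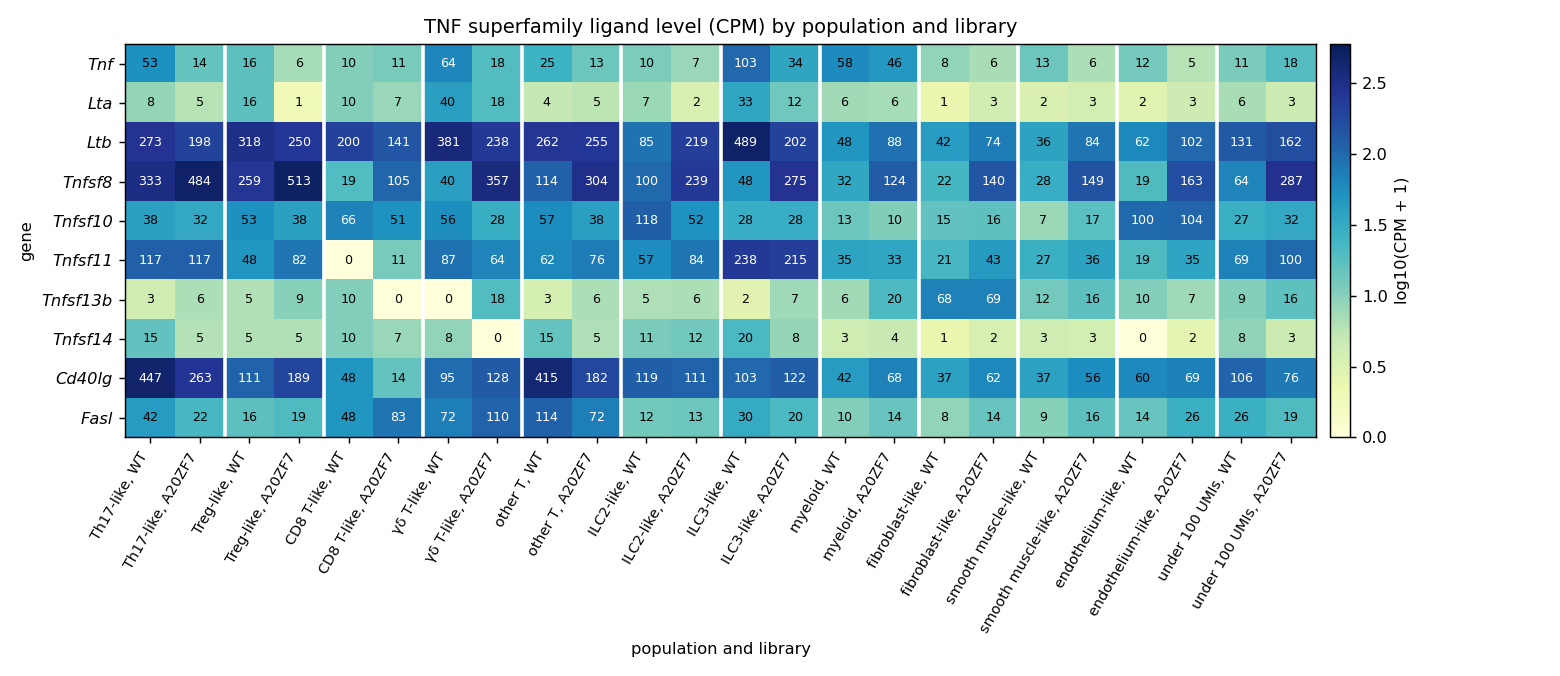
Level of each ligand in CPM (numbers in the cells, color as log10 of CPM plus 1) by population and library, with barcodes of fewer than 100 UMIs in the last 2 columns. *Tnfsf8* was higher in A20ZF7 than in WT in each population, while *Tnfsf13b* was above 60 CPM in fibroblast-like barcodes and in no other population drawn.

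Genes with at least 20 UMIs in a class and a mean of at least 10 CPM over the libraries were compared, and those with a ratio of at least 2 in either direction were counted. In T cells 7 of the 10 members met these limits, and *Lta*, *Tnfsf13b* and *Tnfsf14* fell below the mean level. *Tnfsf8* was at least 2-fold higher in A20ZF7, as were 3.16% of the 8159 genes compared, and *Tnf* and *Fasl* were at least 2-fold lower, as were 1.56%. In innate lymphoid barcodes 9 members met the limits, all but *Tnfsf13b*. *Tnfsf8* was at least 2-fold higher there, as were 3.29% of 8352 genes, and *Tnf*, *Lta* and *Tnfsf10* were at least 2-fold lower, as were 1.82%. Those 3 calls depended on which barcodes were kept and on the mix of subsets. Hashtag antibodies place many WT barcodes in mouse 1 or mouse 2, and against the called barcodes of mouse 1 alone the ratios were 0.606 for *Tnf*, 0.618 for *Lta* and 0.518 for *Tnfsf10*, all short of 2-fold, while that of *Tnfsf14* was 0.462. With mouse 2 left out and the uncalled WT barcodes kept, an alternative chosen after seeing the data, *Tnf* stayed past 2-fold at 0.471, and *Lta* (0.552) and *Tnfsf10* (0.546) did not. With a minimum of 1000 UMIs *Tnf* (0.621) and *Lta* (0.638) were short of 2-fold. The median ratio of the members compared was 0.675 in T cells and 0.754 in innate lymphoid barcodes, beside medians of 1.02 and 1.01 over all genes compared.

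In the stromal and myeloid classes *Tnfsf8* was again the member past 2-fold. It was not once free RNA was taken off, when none was left in A20ZF7 and the ratio was 0 in both. In stromal barcodes *Tnfsf8* alone of 7 members was at least 2-fold higher, as were 3.68% of genes, and no member was at least 2-fold lower, as were 2.94%. The median ratio of these 7 members was 1.71 in stromal barcodes, beside 0.968 over all genes compared. Within the stromal subsets *Tnfsf11* was also past 2-fold in fibroblast-like barcodes, a ratio of 2.01 (1.68–2.42). In smooth muscle-like barcodes *Ltb* had 2.36 (1.74–3.20) and *Tnfsf10* 2.36 (1.16–4.81). These subset ratios are without free RNA taken off. In myeloid barcodes *Tnfsf8* alone of 5 members was at least 2-fold higher, as were 9.33% of genes, and no member was at least 2-fold lower, as were 3.75%.

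**Figure D2:**
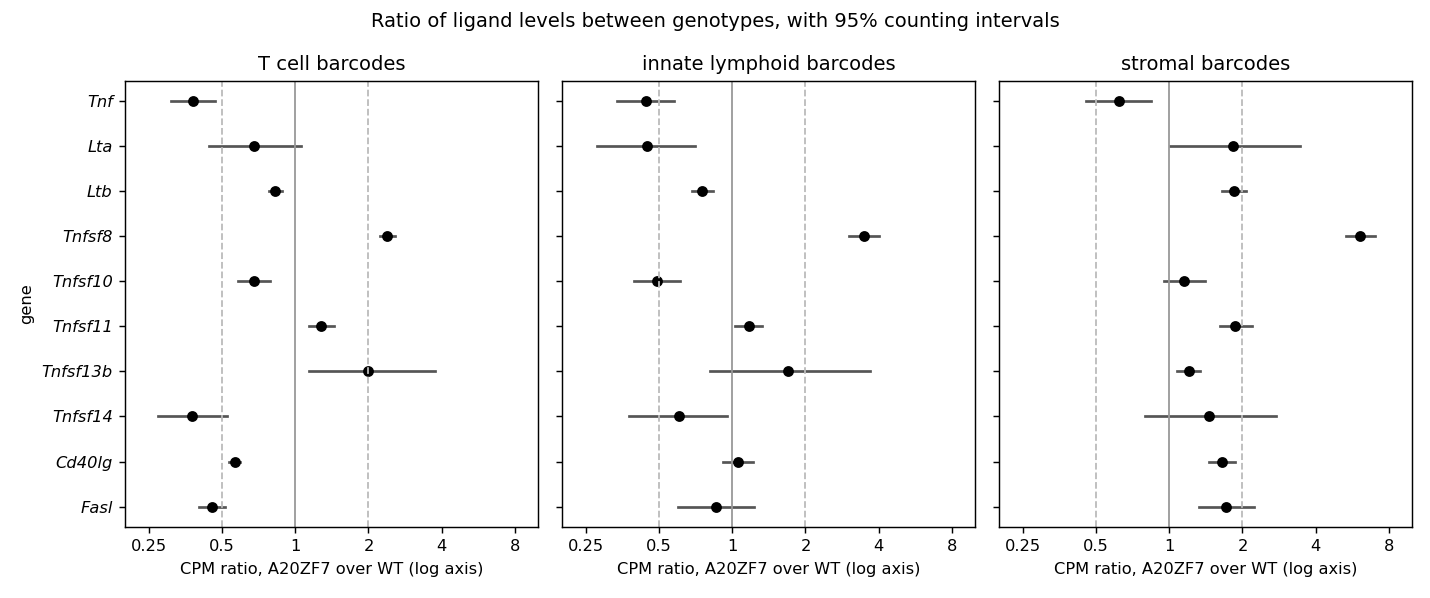
Ratio of CPM, A20ZF7 over WT, for each ligand in T cell, innate lymphoid and stromal barcodes on a log axis, with 95% counting intervals as bars and dashed lines at 0.5 and 2. *Tnfsf8* lies beyond 2 in all 3 classes, *Tnf* below 1 in all 3, and *Ltb*, *Cd40lg* and *Fasl* below 1 in T cells and above 1 in stromal barcodes.

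*Tnf*, which encodes the inflammatory cytokine that gave the family its name, was lower in A20ZF7 T cells and ILC3-like barcodes. In T cells it was found at 33.4 CPM in WT (156 UMIs) and 12.7 CPM in A20ZF7 (230 UMIs), a ratio of 0.380 (0.309–0.469). In Th17-like barcodes its levels were 53.3 and 13.9 CPM, a ratio of 0.261 (0.194–0.354). Its highest WT level was in ILC3-like barcodes, at 103 CPM (88.2–120), an interval that overlaps those of γδ T-like (27.4–125) and myeloid barcodes (34.4–91.6). In A20ZF7 the ILC3-like level was 33.8 CPM (26.4–42.6), a ratio of 0.328 (0.245–0.435). By hashtag calls the WT mice differed there beyond counting error, with 78.1 CPM in mouse 1 and 125 CPM in mouse 2. Their ratio was 0.626 (0.429–0.906), and the A20ZF7 level lay below both. The highest A20ZF7 level of *Tnf* was in myeloid barcodes, with an interval that overlaps the ILC3-like one. ILC2-like barcodes held little of it, 10.3 CPM in WT and 7.28 CPM in A20ZF7, with 19 and 9 UMIs. Barcodes with fewer than 100 UMIs held 10.6 CPM in WT and 18.0 CPM in A20ZF7 (12.3–25.4). The A20ZF7 Th17-like interval (11.6–16.5) overlaps that of free RNA, while the WT Th17-like level (41.4–67.4) lay above it. In myeloid barcodes *Tnf* stood at 58.0 CPM (34.4–91.6) and 45.8 CPM (32.2–63.1), with a ratio of 0.790 (0.439–1.47) that includes 1.

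*Lta*, lymphotoxin α, which forms a soluble homotrimer or joins lymphotoxin β at the cell surface, was sparse. ILC3-like barcodes held 33.1 CPM in WT (55 UMIs) and 12.4 CPM in A20ZF7 (26 UMIs), a ratio of 0.373 (0.225–0.605). The WT mice differed there beyond counting error, with 23.0 CPM in mouse 1 and 50.6 CPM in mouse 2, a ratio of 0.454 (0.227–0.871), and the A20ZF7 level lay below both. WT γδ T-like barcodes stood at 39.7 CPM (12.9–92.7) from 5 UMIs, an interval that overlaps that of ILC3-like barcodes. In T cells the levels were 6.64 and 4.48 CPM, and the ratio of 0.674 (0.440–1.06) includes 1. The free RNA level was 5.91 CPM in WT and 3.37 CPM in A20ZF7, with intervals that overlap those of T cells.

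*Ltb*, lymphotoxin β, is the membrane anchor of the lymphotoxin heterotrimer that binds the lymphotoxin β receptor. It was lower in A20ZF7 ILC3-like and higher in A20ZF7 ILC2-like barcodes. In ILC3-like barcodes it was at 489 CPM in WT (456–524) against 202 CPM in A20ZF7, a ratio of 0.413 (0.366–0.465). In ILC2-like barcodes it was at 85.0 CPM in WT against 219 CPM in A20ZF7, a ratio of 2.58 (2.11–3.16). WT ILC3-like barcodes thus had the highest level of any population, with an interval that overlaps that of the γδ T-like barcodes, while the A20ZF7 ILC2-like and ILC3-like levels overlapped. In T cells the difference was small, 269 CPM in WT and 223 CPM in A20ZF7, a ratio of 0.827 (0.776–0.882). Barcodes with fewer than 100 UMIs held 131 and 162 CPM, above the WT ILC2-like level. *Igha* in WT ILC2-like barcodes was at 9.81% of its own free RNA level. *Cd3e* was at 50.9 CPM in WT against 128 CPM in A20ZF7 ILC2-like barcodes and at 116 against 203 CPM in ILC3-like barcodes, so this T cell gene was higher in both A20ZF7 subsets, and the part of T cell RNA in these ratios was not tested.

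The WT mice were alike in *Ltb*. By the hashtag calls, *Ltb* in ILC3-like barcodes was 487 CPM in mouse 1 and 496 CPM in mouse 2. In ILC2-like barcodes it was 77.3 and 79.7 CPM. The A20ZF7 value lay below both mice in the former and above both in the latter.

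**Figure D3:**
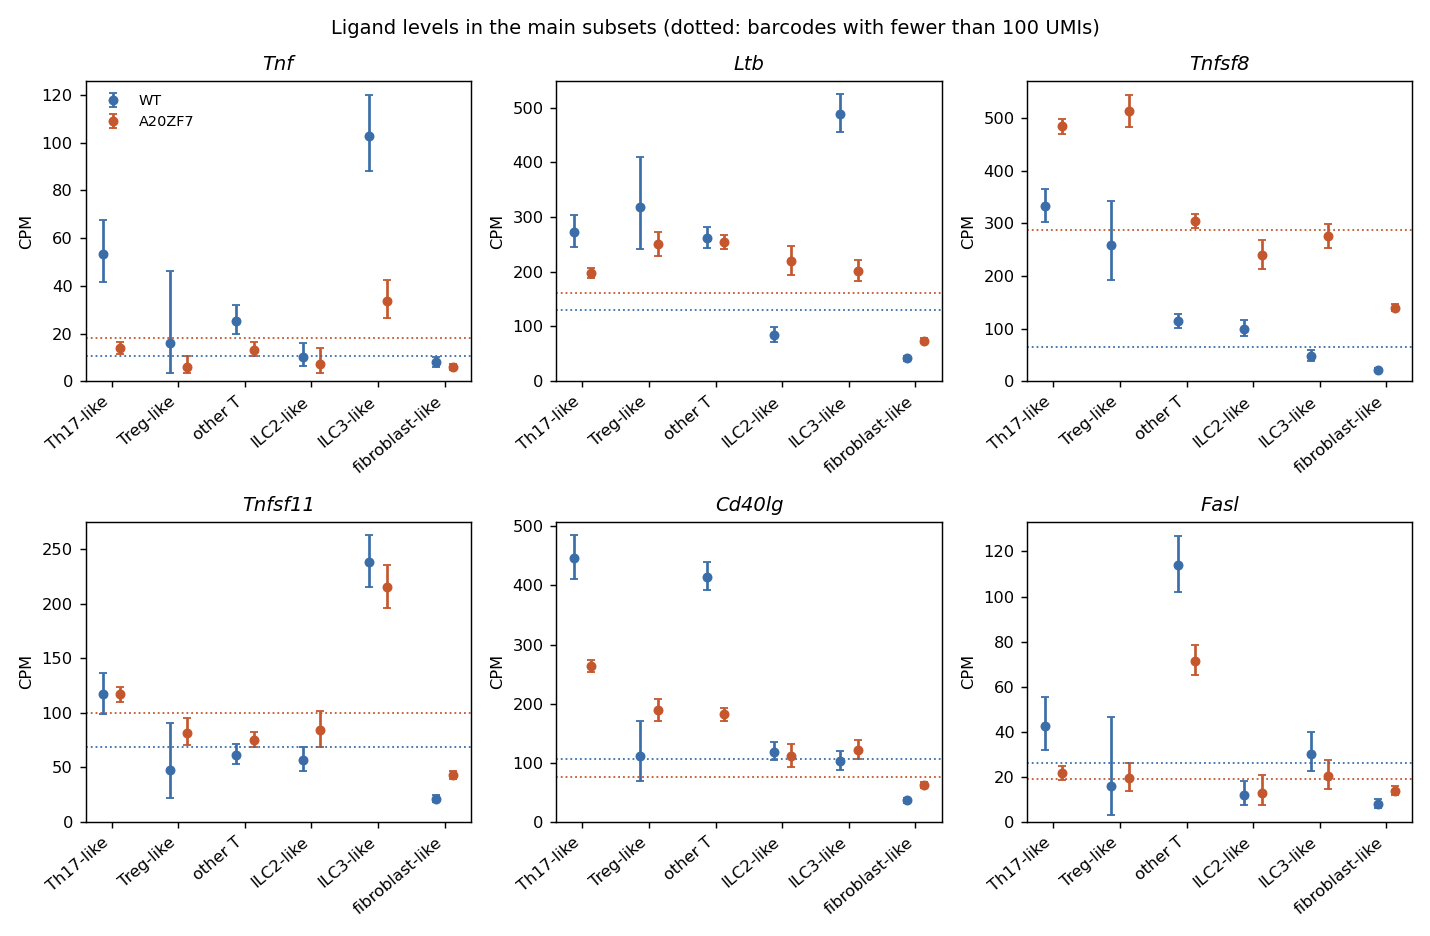
Levels of 6 ligands in CPM in 6 populations, WT in blue and A20ZF7 in orange, with exact Poisson 95% intervals as bars and the level in barcodes of fewer than 100 UMIs as dotted lines. *Ltb* was higher in WT ILC3-like and lower in WT ILC2-like barcodes than in A20ZF7, while *Tnfsf11* overlapped between genotypes in ILC3-like and Th17-like barcodes.

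*Tnfsf8* encodes CD30L, a membrane ligand of activated T cells and ILCs whose receptor is CD30. It was the one member at least 2-fold higher in A20ZF7 in all 4 classes compared. With the free RNA level taken off, it remained past 2-fold in innate lymphoid barcodes (2.74) and not in T cells (1.91), stromal barcodes or myeloid barcodes. In T cells it was found at 177 CPM in WT (824 UMIs) and 420 CPM in A20ZF7 (7606 UMIs), a ratio of 2.38 (2.22–2.56). Innate lymphoid barcodes held 75.3 and 262 CPM, a ratio of 3.48 (3.03–4.01). Barcodes with a *Tnfsf8* UMI made up 10.2% of WT and 25.4% of A20ZF7 T cell barcodes, at median depths of 738 and 706 UMIs.

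Among the lymphocyte subsets the ratio of *Tnfsf8* was lowest where its WT level was highest, in Th17-like barcodes. These barcodes held 333 CPM in WT against 484 CPM in A20ZF7, a ratio of 1.46 (1.32–1.61). Treg-like barcodes held 259 and 513 CPM, a ratio of 1.98 (1.49–2.69). The remaining T cells, which took no subset name, held 114 and 304 CPM, a ratio of 2.66. ILC3-like barcodes, which came after 4 others in the WT order, held 47.6 CPM there and 275 CPM in A20ZF7, a ratio of 5.78 (4.57–7.41). In ILC2-like barcodes the levels were 100 CPM and 239 CPM, a ratio of 2.39 (1.98–2.89). With both libraries given the WT mix of subsets, the T cell ratio was 2.04.

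Free RNA moved with *Tnfsf8*. Barcodes with fewer than 100 UMIs held 64.2 CPM in WT (54.4–75.2) and 287 CPM in A20ZF7 (262–313). Stromal barcodes, which should lack the gene, held 23.3 and 142 CPM, a ratio of 6.11 (5.35–7.00), and both values lay below the free RNA level of their library. The ILC2-like and ILC3-like levels in A20ZF7 lay at or below its free RNA level of 287 CPM. The Th17-like and Treg-like levels lay above it. *Igha* in A20ZF7 ILC2-like and ILC3-like barcodes was at 14.7% and 36.3% of its own free RNA level. Of the stromal barcodes, 174 of 8728 in WT and 1429 of 12970 in A20ZF7 held a *Tnfsf8* UMI, at median depths of 1069 and 920 UMIs. With each barcode thinned to 500 UMIs, which leaves out 5061 A20ZF7 T cell and 1091 A20ZF7 stromal barcodes that were shallower, the shares were 6.79% and 17.5% in T cells and 0.847% and 6.07% in stromal barcodes. 

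*Tnfrsf8*, the gene of the CD30 receptor, was scarce. In T cells it was found at 2.79 CPM in WT (13 UMIs) and 15.6 CPM in A20ZF7 (283 UMIs), a ratio of 5.61 (3.23–10.7). Stromal barcodes held 0.560 and 4.08 CPM. Its Th17-like levels were 3.09 CPM from 4 UMIs and 20.2 CPM from 192 UMIs. In Treg-like barcodes the levels of 31.8 CPM (6 UMIs) and 25.6 CPM (54 UMIs) had a ratio of 0.806 (0.347–2.29) that includes 1.

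*Cd40lg* encodes CD40L, the helper T cell ligand that activates B cells and antigen-presenting cells through CD40. It was lower in A20ZF7 T cells, at 395 CPM in WT (1843 UMIs) and 222 CPM in A20ZF7 (4022 UMIs), a ratio of 0.563 (0.533–0.595). Th17-like barcodes held 447 and 263 CPM, and the T cells without a subset name 415 and 182 CPM. In Treg-like barcodes the order was reversed, with 111 CPM in WT (68.8–170) and 189 CPM in A20ZF7 (171–208), a ratio of 1.70 whose interval lies above 1. The WT Treg-like value rests on 21 UMIs, and the hashtag-called mice differed, with 46.5 CPM in mouse 1 from 3 UMIs and 186 CPM in mouse 2 from 16 UMIs, so that mouse 2 lay near the A20ZF7 value and mouse 1 below it.

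In innate lymphoid barcodes *Cd40lg* was at 111 CPM in WT against 118 CPM in A20ZF7, with a ratio of 1.06 (0.915–1.22) that includes 1. Barcodes with fewer than 100 UMIs held 106 CPM in WT and 76.4 CPM in A20ZF7. The innate level thus lay near that of free RNA in WT, where *Igha* in innate lymphoid barcodes was at 14.5% of its own free RNA level. In stromal barcodes the levels were 37.7 and 62.1 CPM, both below those of free RNA. *Cd40*, the receptor gene, had its highest level among these classes in myeloid barcodes, at 35.4 CPM in WT (11 UMIs) and 74.3 CPM in A20ZF7 (60 UMIs), a ratio of 2.10 (1.09–4.42).

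*Tnfsf14* encodes LIGHT, a T cell ligand of the herpesvirus entry mediator and of the lymphotoxin β receptor. It was found at 13.9 CPM in WT (65 UMIs) and 5.25 CPM in A20ZF7 (95 UMIs) in T cells, a ratio of 0.377 (0.272–0.525). Innate lymphoid barcodes as a class held 15.4 and 9.28 CPM, a ratio of 0.603 (0.375–0.955), which was 1.83 with a minimum of 1000 UMIs. ILC3-like barcodes held 20.5 and 7.61 CPM, a ratio of 0.371 (0.191–0.691). ILC2-like barcodes held 10.8 and 12.1 CPM, with a ratio of 1.12 (0.534–2.30) that includes 1. Its mean over the libraries in T cells was below the 10 CPM set for the count of genes, and barcodes with fewer than 100 UMIs held 8.02 and 3.37 CPM.

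*Tnfsf11* encodes RANKL, the ligand of RANK, which in the gut is known for the differentiation of the epithelium over lymphoid follicles. Its highest level was in ILC3-like barcodes in both libraries, 238 CPM in WT (215–263) and 215 CPM in A20ZF7 (196–236), a ratio of 0.903 (0.787–1.04). No other population overlapped these intervals. Th17-like barcodes came next, at 117 CPM in each library, with an interval of the ratio of 0.846–1.20. ILC2-like barcodes held 56.8 and 84.1 CPM, a ratio of 1.48 (1.12–1.96). The free RNA level was 68.8 CPM in WT (58.7–80.2) and 99.5 CPM in A20ZF7 (85.4–115). The ILC2-like levels lay below it in both libraries, with intervals that overlap. Over all T cells the levels were 75.6 and 97.0 CPM, a ratio of 1.28 (1.14–1.44), which was 0.941 with the free RNA level taken off. Both T cell levels lay within the free RNA interval of their library. *Igha* in T cells was at 13.4% of its own free RNA level in WT and at 34.7% in A20ZF7.

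*Tnfrsf11a*, the gene of RANK, was at 22.5 CPM in WT innate lymphoid barcodes against 8.98 CPM in A20ZF7, a ratio of 0.399 (0.253–0.614). ILC2-like barcodes held most of it, 60 of 79 UMIs in WT and 25 of 30 UMIs in A20ZF7. *Tnfrsf11b*, the gene of the soluble decoy receptor osteoprotegerin, was found mostly in stromal barcodes, at 16.9 and 14.1 CPM, a ratio of 0.835 (0.677–1.03).

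Both death ligands were lower in A20ZF7 T cells. *Fasl*, by which cytotoxic lymphocytes trigger apoptosis through Fas, was found at 87.4 CPM in WT (408 UMIs) and 39.6 CPM in A20ZF7 (717 UMIs) in T cells, a ratio of 0.453 (0.401–0.513). Most of these UMIs lay in T cells without a subset name, where the levels were 114 and 71.5 CPM, a ratio of 0.628 (0.544–0.726). Th17-like barcodes held 42.5 and 21.6 CPM, a ratio of 0.508 (0.376–0.697). The free RNA level was 26.2 CPM in WT (20.1–33.6) and 19.1 CPM in A20ZF7 (13.2–26.7). The A20ZF7 Th17-like level lay within that interval, and the WT one lay above its own. With both libraries given the WT mix of subsets the T cell ratio was 0.650, which is short of 2-fold. CD8 T-like barcodes held 5 UMIs in WT and 23 in A20ZF7, 47.5 CPM (15.4–111) and 83.4 CPM (52.9–125), which overlap. *Fas* was higher in A20ZF7, at 20.1 and 39.7 CPM in T cells, a ratio of 1.97 (1.59–2.47).

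*Tnfsf10* encodes TRAIL, the ligand of the death receptor DR5. ILC2-like barcodes had the highest WT level among lymphocytes, 118 CPM (103–135), which overlapped the intervals of the CD8 T-like (26.7–137) and γδ T-like (22.4–115) barcodes, against 51.7 CPM in A20ZF7 (39.8–66.1), a ratio of 0.438 (0.327–0.582). In ILC3-like barcodes the levels were 28.3 and 28.5 CPM, a ratio of 1.01 (0.676–1.51). These ILC3-like levels lay near the free RNA level, 27.4 CPM in WT (21.2–35.0) and 32.0 CPM in A20ZF7 (24.3–41.5). Endothelium-like barcodes held 100 CPM in WT (74.7–131) and 104 CPM in A20ZF7, a ratio of 1.04 (0.709–1.53). In T cells the levels of 51.9 and 35.0 CPM gave a ratio of 0.675 (0.581–0.786). *Tnfrsf10b*, the gene of DR5, was at 12.6 and 7.41 CPM in T cells, a ratio of 0.586 (0.428–0.810).

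*Tnfsf13b* encodes BAFF, and its UMIs lay mostly in stromal barcodes. Fibroblast-like barcodes held 67.6 CPM in WT (517 UMIs) and 68.9 CPM in A20ZF7 (811 UMIs), a ratio of 1.02 (0.912–1.14). Smooth muscle-like barcodes held 11.5 and 15.9 CPM. T cells held 14 UMIs in WT and 108 in A20ZF7, the latter at 5.97 CPM, where barcodes with fewer than 100 UMIs held 9.29 and 15.7 CPM. Myeloid barcodes, a known source of BAFF, held 2 UMIs in WT and 16 in A20ZF7, a ratio of 3.07 (0.723–27.6). Of its receptor genes, *Tnfrsf13b* was at 13.3 and 22.5 CPM in T cells, a ratio of 1.69 (1.29–2.25), and *Tnfrsf13c* and *Tnfrsf17* did not reach the limits for comparison in any class.

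T cell barcodes were 24.3% of those kept in WT and 44.8% in A20ZF7, and they held a larger part of most ligands in A20ZF7. Of the UMIs in the 5 classes, T cells held 33.6% of *Tnf* in WT (29.3–38.1) and 54.1% in A20ZF7 (49.2–58.9), while the innate lymphoid part went from 40.9% to 18.8%. For *Ltb* the T cell part was 46.8% and 69.2% and the innate part 36.1% and 12.0%. For *Tnfsf11* the T cell part was 31.9% and 60.4%. *Cd40lg* and *Fasl* came mostly from T cells in both libraries, 69.5% and 75.8% of the former and 71.1% and 72.9% of the latter. Stromal barcodes held 551 of 580 *Tnfsf13b* UMIs in WT and 85.2% in A20ZF7. For the 8 ligands other than *Tnfsf13b* and *Tnfsf10*, stromal barcodes held between 13.0% and 25.3% in either library. Enrichment by negative selection bears on all of these shares.

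Many lymphocyte barcodes held no UMI of any member. In T cells this was 46.0% of WT and 47.8% of A20ZF7 barcodes, and 17.9% and 17.3% held UMIs of 2 or more members. Of innate lymphoid barcodes 58.3% and 62.4% held none, and 10.6% and 9.74% held 2 or more. Median depths were 738 and 706 UMIs in T cells and 768 and 612 UMIs in innate lymphoid barcodes. These shares were not thinned to 1 depth.

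The 2 WT mice allow a comparison of the members within a genotype. Both lie in the same library, so it holds no variation between libraries. T cell barcodes were called for mouse 1 (2150 barcodes) and mouse 2 (2204 barcodes). *Tnf* was at 35.8 and 32.8 CPM, *Cd40lg* at 385 and 403 CPM and *Fasl* at 85.6 and 89.0 CPM, and the A20ZF7 value lay below both mice for each. *Tnfsf8* was at 199 CPM in mouse 1 and 159 CPM in mouse 2, which differ beyond counting error, and the A20ZF7 value of 420 CPM lay above both. Of the 7 members compared in T cells, 2 lay above both WT mice in A20ZF7 and 5 below. Over all genes compared in T cells, 41.5% lay above both and 34.5% below, so that most genes lay outside the WT mice. In innate lymphoid barcodes *Tnf* differed between the WT mice, 39.5 CPM in mouse 1 and 59.5 CPM in mouse 2, a ratio of 0.664 (0.466–0.941), and the A20ZF7 value of 24.0 CPM lay below both. *Lta* differed likewise, 14.1 and 25.3 CPM, a ratio of 0.556 (0.307–0.986), with the A20ZF7 value of 8.68 CPM below both. Of the 9 members compared there, 3 lay above both WT mice and 5 below, beside 41.8% and 35.7% of all genes.

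**Figure D4:**
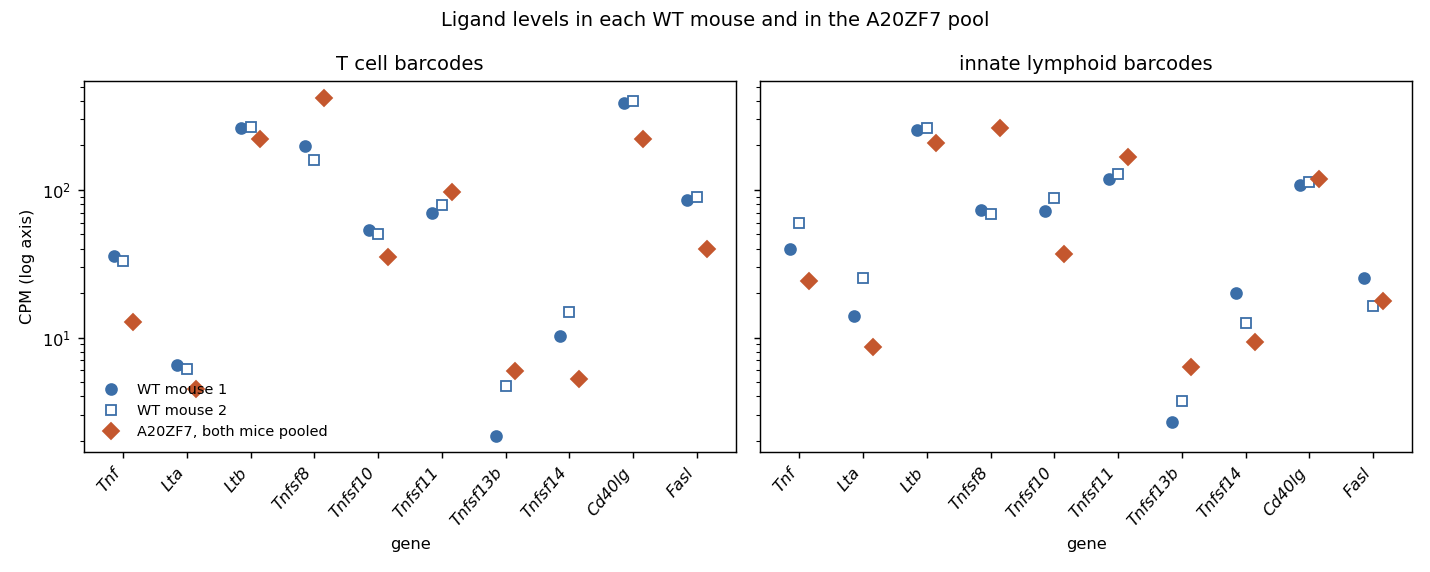
Level of each ligand in CPM on a log axis in WT mouse 1 (filled circles), WT mouse 2 (open squares) and the A20ZF7 pool (diamonds), in T cell and innate lymphoid barcodes. In T cells the A20ZF7 diamond of *Tnf*, *Cd40lg* and *Fasl* lies below both WT mice and that of *Tnfsf8* above both.

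The receptor list of 27 TNF receptor superfamily genes was compared by the same limits. In T cells 11 met them, and *Tnfrsf4* and *Tnfrsf9* were at least 2-fold higher in A20ZF7, with none at least 2-fold lower, beside 3.16% and 1.56% of all genes compared. *Tnfrsf4*, the costimulatory receptor OX40, was at 85.7 and 189 CPM, a ratio of 2.20 (1.98–2.45). *Tnfrsf9*, the costimulatory receptor 4-1BB, was at 87.9 and 205 CPM, a ratio of 2.33 (2.10–2.59). In Treg-like barcodes *Tnfrsf4* was at 619 CPM in WT and 471 CPM in A20ZF7, a ratio of 0.761 (0.628–0.930), and *Tnfrsf9* at 767 and 537 CPM, a ratio of 0.699 (0.588–0.837). Treg-like barcodes were 217 of 5015 T cell barcodes in WT and 3042 of 20095 in A20ZF7. The part of the subset mix in the T cell ratios of these receptors was not tested. In Th17-like barcodes *Tnfrsf9* was at least 2-fold higher and *Tnfrsf4* was not, while both genes were in T cells without a subset name. Stromal barcodes, which should lack both, had ratios of 7.72 for *Tnfrsf4* and 6.21 for *Tnfrsf9*. In innate lymphoid barcodes 12 met the limits, and *Tnfrsf4*, *Cd27*, *Tnfrsf9* and *Tnfrsf26* were at least 2-fold higher and *Tnfrsf11a* at least 2-fold lower, beside 3.29% and 1.82% of all genes compared. *Cd27*, the receptor of CD70, was at 7.41 and 18.9 CPM there, a ratio of 2.54 (1.59–4.19). *Tnfrsf26*, a murine receptor gene of the family, was also at 7.41 CPM in WT, with 17.1 CPM in A20ZF7, a ratio of 2.30 (1.42–3.81).

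Of the 2 TNF receptors, *Tnfrsf1a* was lower and *Tnfrsf1b* higher in A20ZF7 T cells. *Tnfrsf1a* was at 33.0 CPM in WT against 20.2 CPM in A20ZF7, a ratio of 0.613 (0.506–0.745), and *Tnfrsf1b* at 239 and 283 CPM, a ratio of 1.19 (1.11–1.27). *Ltbr*, the receptor of membrane lymphotoxin, was found mostly in stromal barcodes, at 41.7 and 40.5 CPM, a ratio of 0.969 whose interval includes 1. *Tnfrsf14*, the receptor of LIGHT and lymphotoxin α, did not exceed 2.38 CPM in T cells of either library. Of 8 other ligands of the family, none met the limits in T cells, and in innate lymphoid barcodes *Tnfsf12*, which encodes TWEAK and is named since it alone met them, had 12.3 and 10.2 CPM, with a ratio of 0.830 (0.513–1.33). *Tnfaip3* was at 1540 CPM in WT against 1440 CPM in A20ZF7 T cells, a ratio of 0.932 (0.908–0.956). It was higher in A20ZF7 in the other classes, at 1200 and 1600 CPM in innate lymphoid barcodes, a ratio of 1.33 (1.28–1.39), 493 and 746 CPM in myeloid barcodes (1.51) and 233 and 547 CPM in stromal barcodes (2.35). The free RNA share by *Igha* was also higher in these A20ZF7 classes. It was 14.5% and 28.3% in innate lymphoid, 44.8% and 67.3% in myeloid and 34.4% and 59.8% in stromal barcodes. The part of free RNA in the *Tnfaip3* ratios was not tested. The mutation changes the protein motif, so the level of the transcript is no check of the genotype.

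For each member, the genes with the most similar levels over 11 populations in both libraries (22 points) were found by Pearson's r of log2(CPM + 10) among 6323 genes, as a description. *Tnfsf8* was closest to *Ctla4* (0.93), *Maf* (0.90) and *Icos* (0.88), genes of activated and regulatory T cells. *Fasl* was closest to *Prf1* (0.92), which encodes perforin, then to *Ctsw* and *Dnajc15* (both 0.89). *Ltb* was closest to *Il2rb*, *Gimap3* and *Oga* (each 0.94). *Tnfsf11* was closest to *Tnfrsf25* (0.91), a receptor of the same superfamily, *Apol7e* (0.90) and *Tmem64* (0.88). *Tnfsf13b* was closest to the fibroblast genes *Mmp2* and *Mfap5* (both 0.92) and to *Aldh1a3* (0.91). *Tnf* was closest to *Slc16a10* (0.91), *Hk2* (0.87) and *Fcer1g* (0.84), and *Tnfsf10* to *Klk8* (0.84), *Ctla2a* (0.83) and *Elf1* (0.80). The other members had values of 0.87 or less: *Trp53* for *Tnfsf14*, *Slc7a6os* (0.84) for *Lta* and *Ramp3* (0.80) for *Cd40lg*. The points share libraries, depth and free RNA.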

How the data were processed

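UMI counts per gene and barcode of the 2 gene expression libraries were used as deposited, with no filter on cells. The authors made these counts with Cell Ranger, 7.1 in the study's methods and 8.0.0 in the headers of the expression matrices, on mm10. The antibody matrices (header 7.1.0) are identical in 3 of 3 files for WT and A20ZF7, so hashtags were read for WT alone. That these files belong to the WT library is not shown here, and the calls of WT mice rest on it. Genes were matched by ID, which leaves 1746 IDs of WT and 335 of A20ZF7 unused.

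Barcodes had 200 to 2500 genes and at most 15% mitochondrial counts, as in the study, and at least 536 UMIs in WT or 372 in A20ZF7 (0.1 times the 0.99 quantile). WT barcodes with 2 hashtags, 425 among those with at least 200 genes, were removed as doublets, and barcodes with markers of 2 classes were left out in both libraries. No other doublet caller was run. Each barcode was assigned to the most likely of the profiles seeded by markers, and the likelihood left out the TNF superfamily and the check genes. The seeds of innate lymphoid subsets did use some innate lymphoid check genes, among them *Il22*, *Il23r*, *Il13* and *Il5*. Those of Th17-like barcodes used *Il23r*, *Il17a* and *Il17f*. The study reported higher *Il17a* and *Il22* in A20ZF7 Th17 cells, and the effect of this on the subsets was not tested. Within 3 log units of the next profile lay 5.54% of WT and 10.2% of A20ZF7 T cell barcodes. The WT and A20ZF7 shares were 0.552% and 5.55% in ILC2-like, 2.60% and 6.74% in ILC3-like and 9.22% and 17.0% in Treg-like barcodes. In T cells without a subset name they were 3.41% and 8.26%, and in Th17-like barcodes 11.3% and 9.47%. Subset names were rebuilt here from markers, which may set them apart from the study's own. The WT hashtag calls (11072 for mouse 1, 9043 for mouse 2, 8308 for neither) come from the ratio of the 2 hashtags, and in stromal barcodes this ratio did not separate.

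CPM have exact Poisson intervals, ratios exact conditional binomial intervals and shares exact binomial intervals (Clopper-Pearson), all at 95%. The floor is 3 UMIs. T cell barcodes held 4666944 UMIs in WT and 18094620 in A20ZF7, so 3 UMIs are 0.643 and 0.166 CPM, and myeloid barcodes held 310499 and 807824. The counting of genes past 2-fold was run on simulated counts with known changes larger than 2-fold and counting error alone. These counts held no variation between mice, free RNA or errors of class, so they do not test calls near 2-fold between the libraries. Named genes are the members, their receptors, other ligands and receptors past 2-fold in T cells or innate lymphoid barcodes, and the 3 genes most like each member. The members and lists were chosen with earlier results of these data known, and the limits on barcodes and hashtags were set after the counts had been seen. Python 3.11.15, numpy 2.4.6, scipy 1.17.1, pandas 2.3.3 and matplotlib 3.10.9 were used. Alternatives changed the UMI minimum, the gene limit, the hashtag filter, the gate, the total, the depth, free RNA, the subset mix and the WT mice, of which keeping barcodes of 2 classes, and leaving out a WT mouse with uncalled barcodes kept, were chosen after seeing the data.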

Additional observations from a re-analysis of the deposited data

Results flagged for a closer look

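Over 17 pairs of populations and 10 ligands, 10 of 170 comparisons had counting intervals on opposite sides of 1 in the 2 populations. Among genes that met the limits for comparison in both populations of a pair, this was so for 9 of 86 comparisons of members and for 2.64% of those of all genes. The difference between the populations was not tested. *Ltb* in ILC2-like barcodes had a ratio of 2.58 where ILC3-like barcodes had 0.413. *Ltb* also stood at 0.827 in T cells and 0.754 in innate lymphoid barcodes, against 1.82 in myeloid and 1.84 in stromal barcodes. The myeloid ratio of *Ltb* ran from 0.722 under the stricter gate to 9.37 against the called barcodes of WT mouse 2 alone, and its innate lymphoid ratio was 1.03 with a minimum of 1000 UMIs, so these sides of 1 did not hold throughout. *Cd40lg* had a ratio of 1.70 in Treg-like barcodes, against 0.588 in Th17-like barcodes and 0.437 in T cells without a subset name. *Cd40lg* further had 0.563 in T cells against 1.65 in stromal barcodes, where the ratio ran from 1.14 against the called barcodes of WT mouse 2 alone to 14.9 with free RNA taken off. For the latter, 34.4% of a free RNA level of 106 CPM was taken off the WT stromal level of 37.7 CPM. The value of 14.9 thus rests on a small WT remainder. The hashtag ratio did not separate in stromal barcodes, so the value of 1.14 cannot be read as that of 1 mouse. *Fasl* had 0.453 in T cells against 1.71 in stromal barcodes. *Lta* had 0.448 in innate lymphoid barcodes against 1.82 in stromal barcodes. Stromal barcodes held more *Cd3e* in A20ZF7 (124 CPM) than in WT (37.3 CPM), and the part of this RNA in the stromal ratios was not tested.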

How the results depend on the processing

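No paired analysis was possible because each genotype is 1 library. Over 14 alternatives the ratio of *Tnfsf8* lay between 1.91 (free RNA taken off) and 2.65 in T cells and between 2.74 and 3.83 in innate lymphoid barcodes. That of *Tnf* lay between 0.202 and 0.419 in T cells and between 0.358 and 0.621 in innate lymphoid barcodes. Beside each number of members past 2-fold below stands the share of all genes past 2-fold the same way under the same alternative. With free RNA taken off, the *Tnfsf8* ratio was 0 in myeloid and in stromal barcodes, since nothing was left in A20ZF7. At least 2-fold higher were then 0 members in T cells (1.51% of genes) and 0 in myeloid barcodes (5.77%). At least 2-fold lower were 3 in T cells (8.16%), 2 in myeloid (37.8%) and 2 in stromal barcodes (29.2%). With the WT subset mix, 1 member was at least 2-fold lower in T cells (1.13%) and 2 in innate lymphoid barcodes (1.88%). The latter also had 2 members at least 2-fold lower with a minimum of 500 UMIs (2.05%) and under the stricter gate (2.30%). Among innate lymphoid barcodes 1 member was at least 2-fold lower with a minimum of 1000 UMIs (*Tnfsf10*, 4.10%), against the called barcodes of WT mouse 1 alone (*Tnfsf14*, 2.11%), and under 2 alternatives chosen after seeing the data, barcodes of 2 classes kept (*Tnf*, 1.71%) and WT mouse 2 left out with uncalled barcodes kept (*Tnf*, 1.88%). At least 2-fold higher in myeloid barcodes were 2 members with a minimum of 1000 UMIs (11.8%), 2 with every barcode thinned to 500 UMIs (14.0%), 3 against the called barcodes of WT mouse 2 alone (16.7%), 3 against those of mouse 1 alone (13.7%), and 2 with mouse 1 left out and uncalled barcodes kept (12.3%). Under the stricter gate 1 member was at least 2-fold lower in myeloid barcodes (15.9%) and 5 were at least 2-fold higher in stromal barcodes (5.57%), where thinning gave 3 (4.39%) and leaving out mouse 1 with uncalled barcodes kept gave 2 (4.16%). Since the hashtag ratio did not separate in stromal barcodes, the last count does not show what leaving out 1 mouse does. The cause of these differences, the loss of *Tnfsf8* with free RNA taken off among them, was not tested. Myeloid ratios rest on few UMIs, 10 of *Tnfsf8* in WT. CD8 T-like and γδ T-like barcodes number 92 and 122 in WT.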
